A study of Mus musculus with 6 samples.

Results

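The genes described here mark the autonomic nerve supply of the embryonic bladder: 31 genes of autonomic neurons and of the Schwann lineage, of 19938 genes measured. A gene was taken as a member where a feature of the array carried its symbol alone. All 31 were found, and Stmn3, which had 2 features, was read from the brighter. By role, 25 are neuron genes and 6 belong to glia or to glia and neurons alike.

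The arrays hold RNA from mouse bladders at embryonic day E14.5, with 3 pools per genotype and 2 whole bladders in each pool. One group is labelled Klf5 ∆/∆, a deletion of both alleles of the gene for the zinc-finger factor Klf5. The control group is labelled Klf5+/+ShhGfpCre+: its Klf5 alleles are intact and it carries a Cre recombinase expressed from the Shh locus, which is active in bladder epithelium. The label of the Klf5-deleted group names no Cre. Whether pools came from separate litters is not stated, so each p-value reflects only how far these pools differ, and precision is limited by the number of arrays. The source label reads urothelium while the protocol speaks of whole bladders, so nerve and ganglion cells that lie in or on the bladder wall could have entered the RNA. Klf5 was lower in the Klf5-deleted pools, by 0.59 on the log2 scale (SE 0.10, adjusted p = 0.0381 by limma).

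Pelvic ganglion neurons descend from neural crest cells that migrate to the bladder and settle near its base. The homeodomain factor Phox2a and the helix-loop-helix factor Hand2 help set their autonomic fate. Some of these neurons make noradrenaline and others acetylcholine, and the glia that accompany them keep crest factors such as Sox10 and Foxd3. Neurons depend on growth factors made by the tissue they innervate, and Ret, the signalling receptor for the GDNF family, is one receiver of such signals.

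None of the 31 genes passed an adjusted p of 0.05 by limma, where 1.98% of all genes did, 1.59% as lower and 0.386% as higher in the Klf5-deleted pools. At an unadjusted p under 0.05, 4 passed, or 12.9%, against 14.4% of all genes. These were Hand2, Dcx, Uchl1 and Ednrb. The members varied instead from pool to pool within each genotype, and most of them did so together. Control pool 2 gave the highest control value for 26 of the 31 genes, against 27.3% of all genes, and Klf5-deleted pool 3 gave the highest Klf5-deleted value for 22, against 36.3% of all genes.

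**Figure D1:**
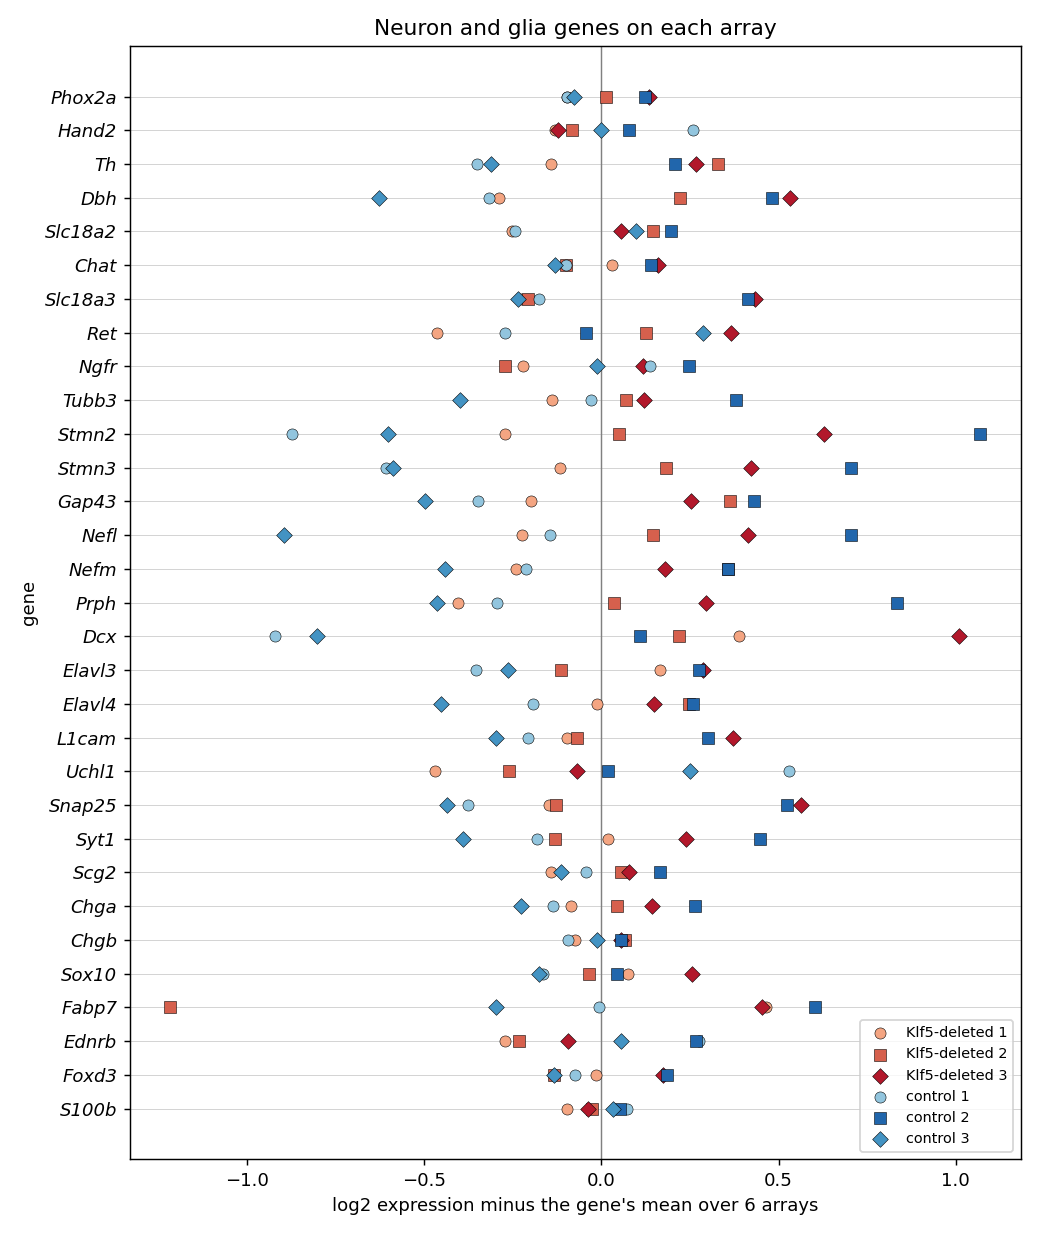
Log2 expression of each of the 31 genes on each of the 6 arrays, as the distance from that gene's mean over the arrays; each point is 1 pool of 2 bladders. Control 2 (dark blue squares) and Klf5-deleted 3 (dark red diamonds) lie to the right for most genes, and the red and blue points are interleaved except for Hand2, Dcx, Uchl1, Ednrb and S100b.

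Among the fate factors, Phox2a did not separate the genotypes. It read 7.55, 7.66 and 7.78 in Klf5-deleted pools 1 to 3, and 7.55, 7.77 and 7.57 in control pools 1 to 3. The difference, Klf5-deleted minus control, was 0.04 (95% confidence interval -0.17 to 0.25). The highest pool of each genotype gave nearly the same value. Hand2, which is also known from mesenchyme of several organs, behaved otherwise. It read 10.12, 10.17 and 10.13 in the Klf5-deleted pools and 10.51, 10.33 and 10.25 in the controls. All 3 Klf5-deleted pools lay below all 3 controls, as for 11.8% of all genes. The difference was -0.23 (SE 0.08, adjusted p = 0.255 by limma). It was 0.01 with arrays centred on the median of 8 housekeeping genes, and -0.15 with arrays centred on their mean. On every array that median was set by B2m and Pgk1. These differed by -0.28 and -0.20, the largest falls of the 8, while 3 of the 8 were higher.

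The noradrenergic genes code for the enzymes and the carrier that make and store noradrenaline. Th, tyrosine hydroxylase, catalyses the rate-limiting step. It read 7.49, 7.96 and 7.90 in the Klf5-deleted pools and 7.28, 7.84 and 7.32 in the controls. Dbh, dopamine beta-hydroxylase, makes noradrenaline itself. Its levels were 7.55, 8.06 and 8.37 in the Klf5-deleted pools and 7.52, 8.32 and 7.21 in the controls. For both genes 2 Klf5-deleted pools and 1 control pool were high and the other 3 low, so the groups overlapped. The differences were 0.30 for Th (95% confidence interval -0.12 to 0.72) and 0.31 for Dbh (-0.41 to 1.03), with adjusted p of 0.516 and 0.72 by limma. Th passed in 1 other setting, with arrays centred on the housekeeping median, where its difference was 0.55 (adjusted p = 0.0477 by limma) and the median of all genes moved from -0.00993 to 0.232. The vesicular monoamine transporter gene Slc18a2 differed by -0.03 (95% confidence interval -0.37 to 0.30).

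The cholinergic pair is encoded at a single place in the genome, where the acetylcholine transporter gene Slc18a3 overlaps the span of Chat, the gene of choline acetyltransferase. Slc18a3 read 7.35, 7.37 and 8.01 in Klf5-deleted pools 1 to 3 and 7.40, 7.99 and 7.34 in the controls. One pool of each genotype was high and the other pools were nearly level. The group means were equal at 7.58, with a 95% confidence interval of the difference from -0.53 to 0.53. Chat read 6.93, 6.80 and 7.06 in the Klf5-deleted pools and 6.80, 7.04 and 6.77 in the controls, a difference of 0.06 (-0.18 to 0.30). Over the 6 arrays the pair had a Pearson's r of 0.90 and a Spearman's rho of 0.77, with exact permutation p of 0.0306 and 0.103, adjusted to 0.0972 and 0.206 over 10 pairs. Without the 2 arrays farthest from the median of Chat, control 2 and Klf5-deleted 3, r was -0.11, so the relation rests on those arrays.

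Sequences just upstream of the start sites are shown for 3 secretory and noradrenergic genes that hold a full cyclic AMP response element, the site of CREB-family factors, and for Dbh, whose pool pattern resembled that of Th without it. They come from the RefSeq promoter table of GRCm38.p6, which held 24 of the 31 genes, and run 5′ to 3′ for 120 bases up to the base before the start, with TGACGTCA in capitals. The positions are chr7:142899996-142900115 (minus strand) for Th, chr1:79440027-79440146 (minus strand) for Scg2, chr2:132781522-132781641 (plus strand) for Chgb and chr2:27165387-27165506 (plus strand) for Dbh. The build behind the array's own annotation is not stated.
Th: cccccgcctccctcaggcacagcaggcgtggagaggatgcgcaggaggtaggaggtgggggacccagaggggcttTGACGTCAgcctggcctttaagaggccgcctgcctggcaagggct
Scg2: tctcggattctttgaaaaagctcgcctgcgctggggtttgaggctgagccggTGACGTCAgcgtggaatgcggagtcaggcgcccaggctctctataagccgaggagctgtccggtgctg
Chgb: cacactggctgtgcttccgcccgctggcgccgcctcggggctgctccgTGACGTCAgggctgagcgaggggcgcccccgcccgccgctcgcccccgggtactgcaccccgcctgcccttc
Dbh: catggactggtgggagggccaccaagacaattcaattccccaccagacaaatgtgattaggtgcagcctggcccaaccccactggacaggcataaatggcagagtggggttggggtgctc

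The element starts 45 bases before the start of Th, 68 bases before that of Scg2 and 72 bases before that of Chgb. It was also found at Slc18a2, 4 bases before the start, and at Foxd3, 233 bases before it. In windows from 250 bases before to 50 after the start, read on both strands, TGACGTCA was in 5 of 24 members and in 2.03% of 27025 genes. A half-site of the repressor REST, TTCAGCACC, was in 1 member, Scg2, and in 0.433% of all genes. The box GGGNGTGG, bound by Krüppel-like factors, was in 7 members, or 29.2%, and in 19.7% of all genes. These 3 are of 12 letter strings searched and were picked after their counts were seen. A match is a description of letters and not a site in use.

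The receptor genes were not called. Ret read 8.48, 9.07 and 9.31 in the Klf5-deleted pools and 8.67, 8.90 and 9.23 in the controls. The difference was 0.02 (95% confidence interval -0.51 to 0.54). Ret was the only member with its highest control value on control 3, and its r with the 26 other neuron genes described below was 0.16; Ret is also known from the nephric duct. Ngfr, the low-affinity neurotrophin receptor of neurons and glia, read 9.75, 9.70 and 10.09 in the Klf5-deleted pools and 10.11, 10.22 and 9.96 in the controls, a difference of -0.25 (-0.53 to 0.03).

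Several genes of the growing axon swung widely between pools of one genotype. Stmn2, a microtubule regulator of growth cones, read 9.20, 9.52 and 10.10 in the Klf5-deleted pools and 8.60, 10.54 and 8.87 in the controls. The controls spanned 3.83-fold, with control 2 above and controls 1 and 3 below every Klf5-deleted pool. The group difference was 0.27 (95% confidence interval -0.88 to 1.42). Its paralog Stmn3 read 8.51, 8.81 and 9.05 against 8.02, 9.33 and 8.04, in the same order of pools. The 6 arrays ranked both genes alike, with r of 0.98 and rho of 1.00, each with an exact permutation p of 0.00278, adjusted to 0.0278 over the 10 pairs examined; without control 1 and control 2, r was 0.96.

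The neurofilament gene Nefl read 9.29, 9.66 and 9.93 in the Klf5-deleted pools and 9.37, 10.22 and 8.62 in the controls, a span of 3.03-fold among controls. Nefm, its neighbour on the chromosome 30.4 kb away, read 8.08, 8.68 and 8.50 against 8.11, 8.68 and 7.88. Control 3 was lowest for both. Prph, the intermediate filament of peripheral neurons, had 8.15, 8.59 and 8.85 against 8.26, 9.39 and 8.09. Gap43, a growth-cone membrane protein, had 8.37, 8.93 and 8.82 against 8.22, 9.00 and 8.07. In each, control 2 lay above every Klf5-deleted pool or level with the highest, and controls 1 and 3 lay below Klf5-deleted pools 2 and 3. The differences of these 4 genes ran from -0.05 for Prph to 0.27 for Gap43, with adjusted p of 0.697 to 0.972 by limma. Tubb3, the neuronal beta-tubulin, differed by 0.03 (95% confidence interval -0.40 to 0.47).

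Dcx, the microtubule-binding protein of migrating and newly formed neurons, had the largest difference of the members. It read 8.67, 8.50 and 9.29 in the Klf5-deleted pools and 7.36, 8.39 and 7.48 in the controls. The lowest Klf5-deleted pool stood just above control 2, and controls 1 and 3 were far lower, so the groups did not overlap, as for 8.67% of all genes in this direction. The log2 difference of 1.08 (SE 0.30), a fold of 2.11, had an adjusted p of 0.154 in limma. The 95% confidence interval ran from 0.37 to 1.78. It passed without control 2 (1.40, adjusted p = 0.0251 by limma) and with the housekeeping median (1.32, adjusted p = 0.0211 by limma), and in none of the other settings run, where the adjusted p reached 0.37. Within genotypes Dcx followed the other neuron genes, with an r of 0.95. Whether its difference is larger than that of other neuron members was not tested.

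**Figure D2:**
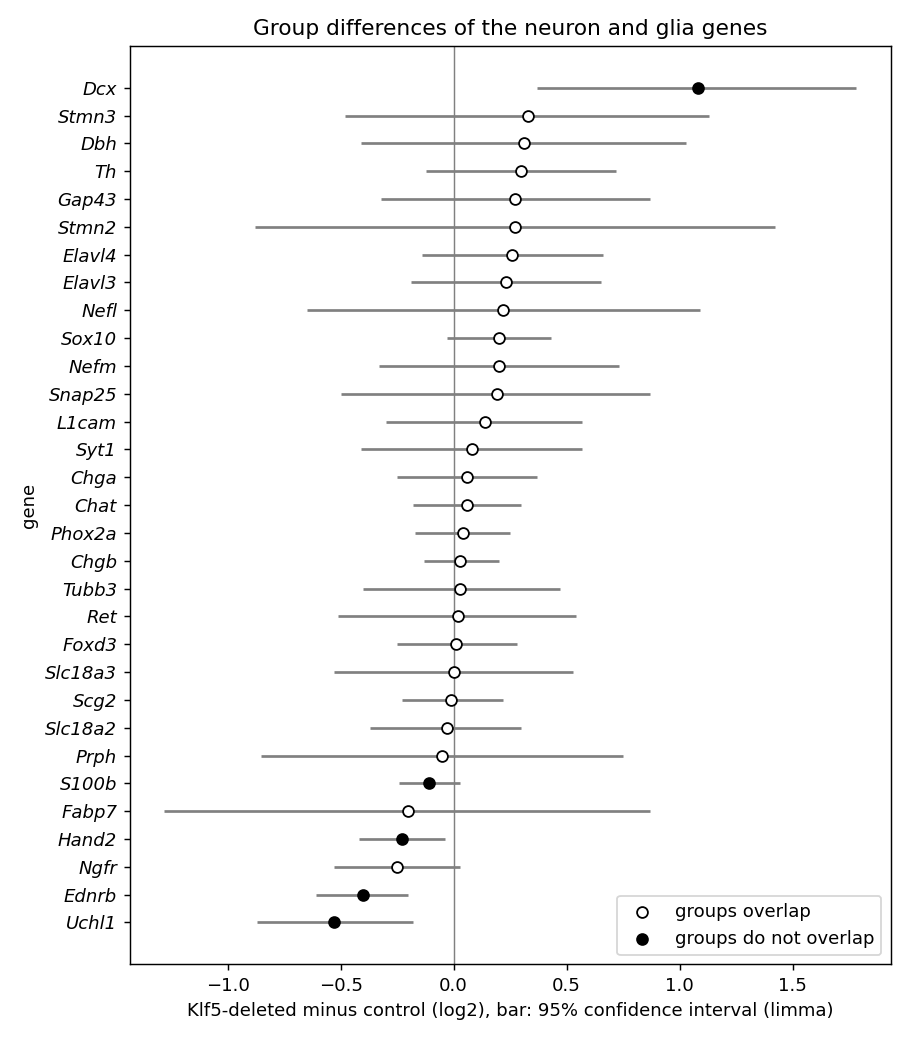
Difference in mean log2 expression, Klf5-deleted minus control, for the 31 genes, ordered by size; bars are limma's 95% confidence intervals and filled points mark genes whose groups do not overlap. Dcx lies at 1.08 and Uchl1 at -0.53, and most other intervals span 0.

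The RNA-binding proteins Elavl3 and Elavl4, which stabilise neuronal messages, differed by 0.23 and 0.26 with groups that overlapped. Elavl3 read 8.18, 7.90 and 8.30 against 7.66, 8.29 and 7.75, and Elavl4 read 7.22, 7.48 and 7.38 against 7.04, 7.49 and 6.78. Their r over 6 arrays was 0.69 (exact permutation p = 0.14), and -0.23 without control 1 and control 3. L1cam, an adhesion protein of axons, differed by 0.14 (95% confidence interval -0.30 to 0.57). Uchl1, an abundant ubiquitin hydrolase of neurons used to stain nerves, had the largest negative difference. It read 8.91, 9.12 and 9.31 in the Klf5-deleted pools and 9.91, 9.40 and 9.63 in the controls. Every Klf5-deleted pool was below every control, and control 2, high for other neuron genes, was the lowest control. The difference was -0.53 (SE 0.15, 95% confidence interval -0.87 to -0.18, adjusted p = 0.155 by limma), and the adjusted p ran from 0.0828 to 0.398 over the other settings.

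The genes of vesicles and secretion overlapped between genotypes. Snap25, a membrane fusion protein, read 8.24, 8.26 and 8.95 in the Klf5-deleted pools and 8.01, 8.91 and 7.95 in the controls. Syt1, the calcium sensor of release, read 8.42, 8.27 and 8.64 against 8.22, 8.85 and 8.01. One pool of each genotype, Klf5-deleted 3 and control 2, was highest for both. Their differences were 0.19 and 0.08. The granins Chga, Chgb and Scg2, which pack dense-core vesicles, differed by 0.06, 0.03 and -0.01, with 95% confidence intervals that lay between -0.25 and 0.37. Chgb and Scg2 also had small spans, of 1.11-fold and 1.21-fold among controls. Scg2 was among the dimmest 25% of genes by mean level, where RMA compresses differences.

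The glial genes were divided. Sox10, the factor of Schwann and satellite cells, read 7.98, 7.87 and 8.16 in the Klf5-deleted pools and 7.74, 7.95 and 7.73 in the controls. The groups overlapped through control 2, and the difference was 0.20 (95% confidence interval -0.03 to 0.43, adjusted p = 0.429 by limma). Foxd3, another crest factor, differed by 0.01 (-0.25 to 0.28). Fabp7, the fatty acid binding protein of Schwann cell precursors, read 10.99, 9.31 and 10.98 against 10.52, 11.13 and 10.23. Klf5-deleted 2 stood 3.20-fold below the highest pool of its genotype. Without it the difference was 0.36, and with all arrays -0.20 (95% confidence interval -1.28 to 0.87).

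Ednrb, the endothelin receptor of migrating crest cells, which other cells of an organ can express too, came nearest to the threshold. It read 10.99, 11.03 and 11.17 in the Klf5-deleted pools and 11.54, 11.53 and 11.32 in the controls. The groups did not overlap. The mean was 1.32-fold lower (log2 difference -0.40, SE 0.09, 95% confidence interval -0.61 to -0.20, adjusted p = 0.0747 by limma). Over the other settings the adjusted p ran from 0.0607 to 0.254. S100b, a calcium-binding protein of mature glia, was lower in all 3 Klf5-deleted pools than in any control, with a difference of -0.11 (adjusted p = 0.477 by limma), and it too was among the dimmest 25% of genes. In all, 5 of 31 members had groups that did not overlap, or 16.1%, against 20.5% of all genes. Fewer cells of a type and less RNA per cell cannot be told apart in whole bladders.

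Over the 31 genes the median difference was 0.059, and 22 were above 0 and 9 below, beside a median of -0.00993 over all genes, 46.5% of which were above 0. For the 25 neuron genes the median was 0.0792 with 20 above 0, and for the 6 others it was -0.154 with 2 above 0. These signs moved with single pools. The median over the 31 genes was 0.231 without control 2, -0.0184 without Klf5-deleted 3 and 0.00564 without control 3, and 26, 13 and 17 genes were then above 0. For the neuron genes the medians were 0.323, -0.00672 and 0.0181. They were 0.0243 without control 1 and 0.202 without Klf5-deleted 1. With arrays centred on the housekeeping median, 28 of 31 were above 0 and the median was 0.301, relative to a median of all genes of 0.232.

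The spread between pools of one genotype was larger for these genes than for most. The pooled SD within groups had a median of 0.284 over the members and 0.103 over all genes. For 20 of the 31 genes, or 64.5%, it lay in the top 10% of all genes, and for 18 in the top 5%. Stmn2 (SD 0.81), Fabp7 (0.76) and Nefl (0.61) were the widest. At the other end were S100b (0.03) and Chgb (0.08). Without control 2 the median percentile of the members' SD was 90.0, against 95.6 with all arrays. For 24 members the group difference was smaller than the SD of the controls, as it was for 52.8% of all genes.

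**Figure D3:**
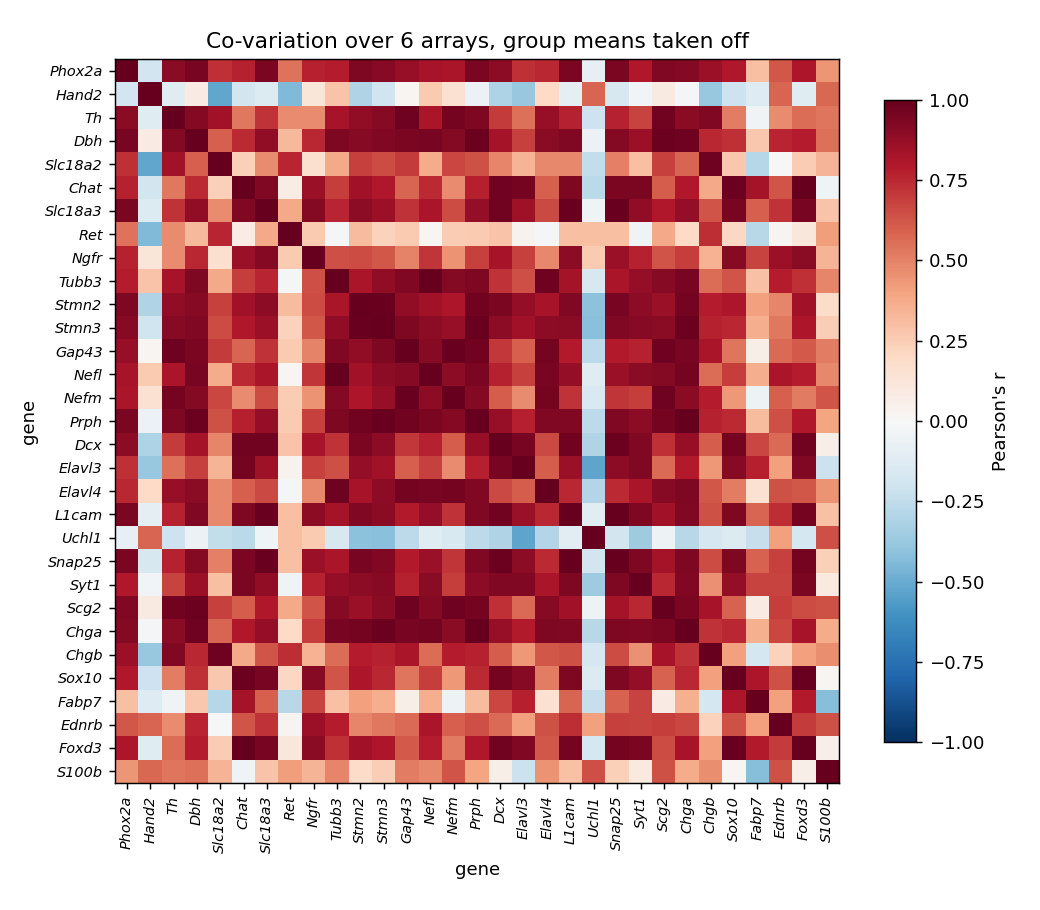
Pearson's r between each pair of the 31 genes over the 6 arrays after each genotype's mean was taken off; red is positive and blue negative. Most neuron genes form a red block, and Hand2, Uchl1 and Ret stand out as pale or blue rows. The r with the mean of the neuron members was 0.34 for S100b and 0.36 for Fabp7, against 0.32 for Ret. For the glial genes Ednrb, Sox10 and Foxd3 it was 0.69, 0.80 and 0.84.

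The members moved together between pools. After the genotype means were taken off, the median r over the 465 pairs was 0.712 and 39.4% of pairs exceeded 0.8, against a median of 0 and 6.02% over all pairs of genes. Among neuron genes the median r was 0.799. The 6 points of every pair come from the same arrays and hold few degrees of freedom, so these values describe the arrays. Without control 2 the median over the 31 genes was 0.596, and over the other arrays left out in turn it was 0.728 to 0.875. For the named pairs, r and rho were taken over the 6 arrays with the genotype means left in. Of the other pairs examined, Th and Dbh had r of 0.91 (rho 0.77) and Nefl and Nefm r of 0.90 (rho 0.83), with exact permutation p of 0.0486 and 0.0153 for r and of 0.103 and 0.0583 for rho. Adjusted over 10 pairs the p for r were 0.0972 and 0.0764, and for rho 0.206 and 0.194, so neither passed. Leaving out the 2 arrays farthest from the median gave r of 0.84 for Th and Dbh and 0.80 for Nefl and Nefm.

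Tubb3 with Stmn2 had r of 0.81 and rho of 0.83 (exact permutation p = 0.0444 and 0.0583, adjusted p = 0.0972 and 0.194), and r of 0.67 without 2 arrays. The remaining pairs were looser with the genotype means left in. Chga with Chgb had r of 0.73 and rho of 0.60 (exact permutation p = 0.119 and 0.242), and r of 0.93 without 2 arrays. Ret with Phox2a had r of 0.53 and rho of 0.71 (exact permutation p = 0.278 and 0.136), and r of 0 without 2 arrays. Tubb3 with Sox10 had r of 0.52 and rho of 0.54 (exact permutation p = 0.285 and 0.297), and r of 0.35 without 2 arrays. Sox10 with Fabp7 had r of 0.49 and rho of 0.60 (exact permutation p = 0.357 and 0.242), and r of 0.38 without 2 arrays. Elavl3 with Elavl4 had rho of 0.66 (exact permutation p = 0.175). For these last 5 pairs the adjusted permutation p ran from 0.199 to 0.357 for r and from 0.227 to 0.297 for rho. With the genotype means taken off, r was 0.81 for Sox10 with Fabp7 and 0.63 for Tubb3 with Sox10. It was then 0.72 for Chga with Chgb, 0.60 for Elavl3 with Elavl4 and 0.53 for Ret with Phox2a.

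A second set of pan-neuronal genes with no member in it, 26 measured of 30 listed, showed the same pattern of pools. Its mean level was 8.05, 8.06 and 8.21 in Klf5-deleted pools 1 to 3 and 7.86, 8.21 and 7.83 in controls 1 to 3. Within genotypes, 21 of the 31 members had an r above 0.8 with this mean, against 7.48% of all genes, and 2 had one below 0. Stmn2, Stmn3 and Chga reached 0.98, while Hand2 stood at -0.16 and Uchl1 at -0.36. None of the 26 passed the threshold, and 20 were above 0 with a median of 0.106. The largest were the membrane protein gene Rtn1 at 0.56 (SE 0.29, adjusted p = 0.453 by limma) and the tubulin gene Tubb2b at 0.53 (SE 0.23, adjusted p = 0.355 by limma). Without control 2, 2 of the 26 passed, Rtn1 and the neurofilament-related gene Ina, which was named after its values were seen. With this mean as a covariate in the fit, a setting chosen after the data were seen, no member passed, the members' median was -0.109 and 5 of 31 were above 0. Dcx then differed by 0.68 (adjusted p = 0.0608 by limma) and Ednrb by -0.46 (adjusted p = 0.0658 by limma). The covariate was itself higher on average in the Klf5-deleted pools. The fit therefore lowers, by construction, the differences of members that follow it. The median of the 26 genes themselves moved from 0.106 to -0.0198.

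Of 19 other autonomic genes measured of 21 listed, 1 rose and 1 fell, and the median was -0.0234. Ddc, the decarboxylase that follows tyrosine hydroxylase and is also found outside neurons, was 1.57-fold higher. It read 9.18, 9.23 and 8.89 in the Klf5-deleted pools and 8.32, 8.50 and 8.53 in the controls, without overlap (log2 difference 0.65, SE 0.11, adjusted p = 0.0316 by limma). Its r with the neuron members was -0.208, so it did not follow the pools. Cyb561, a cytochrome of secretory granules, was 1.63-fold lower, at 7.23, 7.06 and 7.36 against 8.03, 7.86 and 7.87 (log2 difference -0.70, SE 0.09, adjusted p = 0.013 by limma), with an r of -0.00421.

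Both calls depended on the pools included. Ddc lost its call when any array other than Klf5-deleted 3 was left out, with adjusted p of 0.0526 to 0.138 by limma and differences of 0.58 to 0.68, and with the covariate, at an adjusted p of 0.0605 by limma. Cyb561 lost its call when either Klf5-deleted 1 or control 1 was left out, with adjusted p of 0.069 and 0.0565 by limma and differences of -0.71 and -0.65. With the replicate number as a block neither passed, at adjusted p of 0.118 for Ddc and 0.0598 for Cyb561 by limma. At the other extreme, the choline transporter gene Slc5a7 and the nicotinic receptor gene Chrna3 tracked the neuron members at r of 0.999 and 0.997. Chrna3 read 6.56, 6.97 and 7.42 in the Klf5-deleted pools and 6.58, 7.53 and 6.37 in the controls, a difference of 0.15 (95% confidence interval -0.60 to 0.91).

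Of 18 other glial genes measured of 20 listed, none passed and the median was -0.0364. The largest differences were those of Erbb3, the neuregulin receptor of Schwann cells and of epithelia, at -0.52 (SE 0.20, adjusted p = 0.29 by limma), and of the integrin gene Itga4 at -0.50 (SE 0.14, adjusted p = 0.153 by limma). Among genes for the signals that guide and feed axons, none of 10 ligands measured of 12 listed passed and 7 were lower, with a median of -0.0645. Ntn1, the guidance cue netrin, read 8.26, 8.30 and 8.55 in the Klf5-deleted pools and 9.06, 9.21 and 8.73 in the controls, without overlap (log2 difference -0.63, SE 0.14, adjusted p = 0.0761 by limma). Sema3a, which repels axons, read 11.45, 11.42 and 11.45 against 11.74, 11.68 and 11.80, also without overlap (-0.30, SE 0.06, adjusted p = 0.0682 by limma). The GDNF-family ligand genes Gdnf and Nrtn differed by 0.13 and -0.16, and their 95% confidence intervals spanned 0. Of 11 receptors measured of 12 listed none passed, 10 were higher and the median was 0.143, with Erbb4 at 0.46 (SE 0.22) and Gfra2 at -0.39 (SE 0.22). Ntn1 did pass without control 3 and with the covariate, Itga4 with the covariate and Sema3a with an intensity trend in the moderation.

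**Figure D4:**
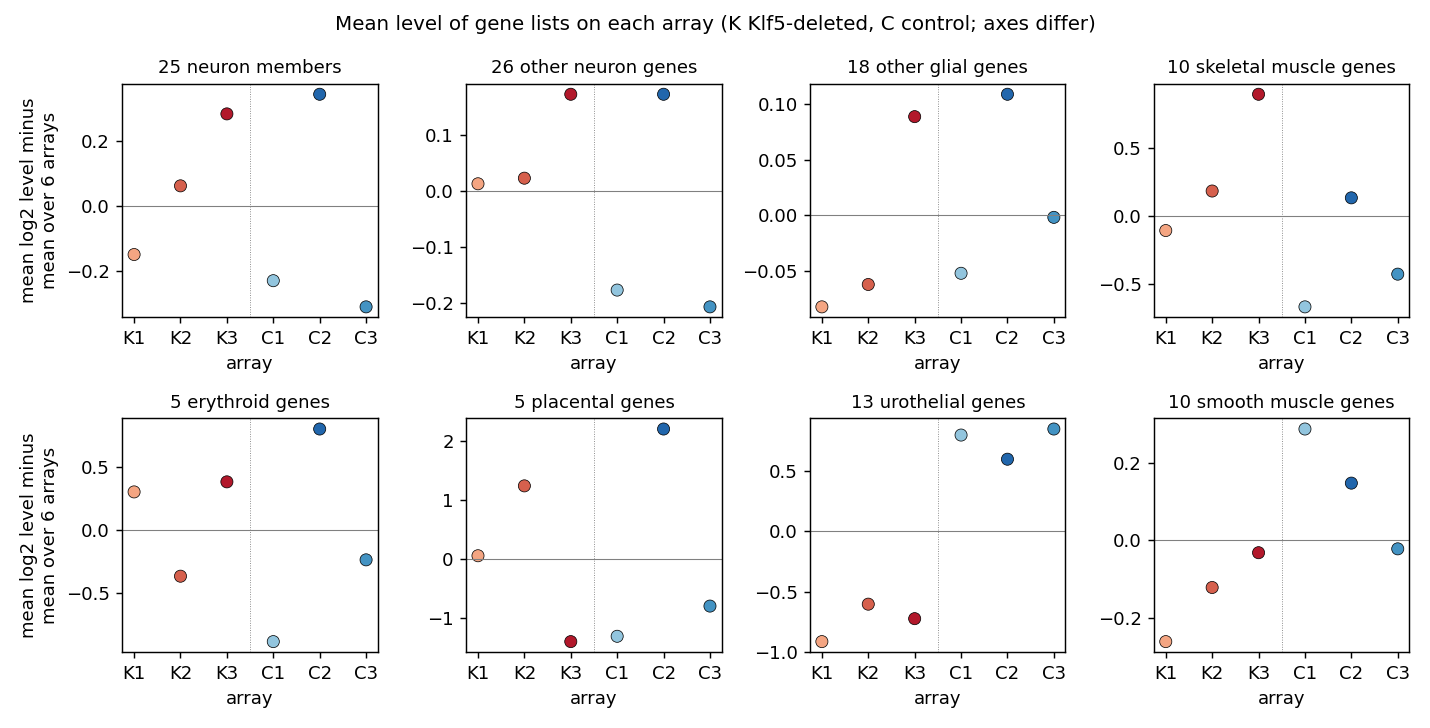
Mean log2 level of 8 gene lists on each array, as the distance from the list's mean over 6 arrays (K1 to K3 Klf5-deleted, C1 to C3 control; each panel has its own scale). Neuron, skeletal muscle and erythroid lists are highest among controls on C2, and the placental list is highest on C2 and next on K2. The urothelial list separates the genotypes widely and the smooth muscle list narrowly.

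Other tissues also varied between the pools. Skeletal muscle genes had mean levels of 8.82, 9.11 and 9.82 in Klf5-deleted pools 1 to 3 and 8.26, 9.06 and 8.50 in the controls, and control 2 was the highest control for all 10. None of the 10 passed by limma, and all 10 differences were above 0 with a median of 0.718. For 3 of the 10 every Klf5-deleted pool lay above every control, as for 8.67% of all genes. The median r of the 10 with the neuron members was 0.817. Control 2 was also the highest control for all 5 erythroid genes, with list means of 11.14 to 11.89 in Klf5-deleted pools and 10.62 to 12.31 in controls, and for all 5 placental genes, at 5.88 to 8.51 and 5.97 to 9.47. Klf5-deleted 3, high for neuron and muscle genes, had the lowest placental mean. Intestinal genes ran from 6.96 to 7.14 and from 6.85 to 7.29, sensory neuron genes from 6.56 to 6.61 and from 6.51 to 6.68 and melanocyte genes from 7.19 to 7.33 and from 7.18 to 7.40. The 5 nephric duct genes ran from 7.45 to 7.58 and from 7.72 to 7.94 with a median difference of -0.0406, and 1 of them, Wfdc2, fell (log2 difference -1.41, adjusted p = 0.0012 by limma) while the other 4 overlapped between genotypes. Genes of the adrenal cortex and medulla ran from 6.23 to 6.30 and from 6.21 to 6.64, with 6.64 on control 2. That mean includes Cyp11a1, at 7.64 on control 2 against 5.48 and 5.71 on controls 1 and 3. Control 2 was the highest control for 4 of the 7 adrenal genes. Like the neuron and muscle genes, the erythroid, intestinal, sensory neuron and adrenal lists had their highest Klf5-deleted mean on Klf5-deleted 3. The melanocyte and nephric duct lists did not. In each of these lists the highest control mean was on control 2. Yet control 2 was the highest control for only 4 of 10 intestinal and 4 of 7 melanocyte genes. The same held for 4 of 7 sensory neuron and 3 of 5 nephric duct genes. The melanocyte mean includes Mitf, at 8.69 on control 2 against 7.63 and 7.5 on controls 1 and 3. The intestinal mean includes Apob, at 9.52 on control 2 against 7.26 and 8.2 on controls 1 and 3. It also includes Fabp1, likewise highest on control 2. The part of these tissues in the levels of the neuron genes was not tested.

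Among the bladder's own tissues, no list had its highest control mean on control 2. Klf5-deleted 3 had the highest Klf5-deleted mean for smooth muscle and mesenchymal genes, as for the neuron members, and not for urothelial or endothelial genes. The 13 urothelial genes had mean levels of 9.25 to 9.56 in the Klf5-deleted pools and 10.76 to 11.01 in the controls, and 9 fell. The 10 smooth muscle genes ranged from 11.61 to 11.84 and from 11.85 to 12.16, and 1, Synpo2, fell. All 10 differences were below 0, with a median of -0.298. For 7 of the 10 every Klf5-deleted pool lay below every control, as for 11.8% of all genes. Mesenchymal genes lay between 12.43 and 12.54 and between 12.48 and 12.58, and endothelial genes between 10.48 and 10.83 and between 10.69 and 10.82. No cell type's markers can be called absent, since the deposited values hold no background call.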

How the data were processed

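Expression was measured on Affymetrix Mouse Gene 1.0 ST arrays, 1 per pool. The authors deposited log2 values made with RMA, per the submitters' processing notes; of RMA's version, the build and the annotation, none is given in the sources used here. Their span, 3.24 to 14.6, is the basis for reading them as log2. RMA equalises the distributions of arrays and compresses differences of dim features. The 35557 features included 21789 with 1 gene symbol in the platform annotation, which gave 19938 genes, the feature of highest mean standing for each of 999 genes with several. All 31 members matched a RefSeq gene by Entrez identifier.

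Klf5-deleted minus control was fitted over all genes in R 4.3.3 by limma 3.58.1 (two-sided, lmFit then eBayes), and a gene was called at a Benjamini-Hochberg adjusted p under 0.05. Co-variation is Pearson's r over the 6 arrays after each group's mean was taken off. For the 10 named pairs, r, rho and their permutation p were computed with the group means left in. Alternatives covered moderation, array weights, features, dim genes, centring, arrays left out, the replicate number as a block and, added after the data were seen, a covariate. Same-numbered pools were not treated as pairs, since the labels tie the numbers to nothing shared. The code was tested on simulated data. The members and lists were chosen with earlier results of these data known. The naming rule took all members, up to 4 list genes past the threshold and the 2 largest differences per list, and the 10 genes most like the neuron members. For lists that mark other tissues most of these genes are not printed, and the lists are given by their levels. Genes singled out beyond this were chosen after their values were seen.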

Additional observations from a re-analysis of the deposited data

How the results depend on the processing

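Of 463 recomputed member differences, 399 kept their direction and their side of the threshold, 61 changed sign and 3 newly passed; no sign change passed. The 3 were Dcx and Th, described above. The count of all genes called was 395, and it was 2881 with the housekeeping median and 420 with the housekeeping mean. It was 110 with the replicate block and 141 to 349 with 1 array left out. No member was called except 2 with the housekeeping median (Th and Dcx) and 0 to 1 with 1 array left out. Falls were 80.5% of calls, 8.4% with the housekeeping median, 58.1% with the housekeeping mean, 70.2% with the array median and 95.5% with the replicate block. The block leaves few residual degrees of freedom. Deviations of same-numbered pools correlated at 0.009, 0.031 and 0.079 over genes; the replicate block changed no member's call.

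With the covariate, signs turned for Chat (-0.05), Chga (-0.11), Chgb (-0.01), Dbh (-0.08), Foxd3 (-0.11), Gap43 (-0.03), L1cam (-0.10), Nefl (-0.25), Nefm (-0.04), Phox2a (-0.06), Ret (-0.03), Slc18a3 (-0.28), Snap25 (-0.20), Stmn2 (-0.40), Stmn3 (-0.14), Syt1 (-0.20) and Tubb3 (-0.19). With the housekeeping median they turned for Fabp7 (0.04), Hand2 (0.01), Prph (0.20), S100b (0.14), Scg2 (0.23) and Slc18a2 (0.21). The housekeeping mean turned Prph (0.03), Scg2 (0.07) and Slc18a2 (0.04), the array median Scg2 (0.03) and Slc18a2 (0.01), and array weights Fabp7 (0.07) and Ret (-0.12). The cause of these changes was not tested beyond the shift that each centring adds and that the covariate takes off members following it. With 1 array left out in turn, signs turned within these ranges: Slc18a2 -0.16 to 0.08, Prph -0.29 to 0.36, Scg2 -0.07 to 0.07, Ret -0.16 to 0.25, Fabp7 -0.48 to 0.36, Phox2a -0.02 to 0.10, Chat -0.01 to 0.15, Slc18a3 -0.22 to 0.21, Tubb3 -0.16 to 0.23, L1cam -0.01 to 0.32, Snap25 -0.05 to 0.50, Syt1 -0.10 to 0.32, Foxd3 -0.07 to 0.11, Stmn2 -0.10 to 0.87, Chgb 0.00 to 0.08, Nefl -0.17 to 0.63 and Chga -0.03 to 0.21. Of the genes in the other nerve-related lists, 2 passed with the settings of the report and 15 with the housekeeping median.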

Other observations

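Outside the lists, the genes whose pool-to-pool pattern was most like the mean of the neuron members, by r over 6 arrays after the genotype means were taken off, were Gm6133 (0.9995), Krt77 (0.9957), Slc2a6 (0.9955), Cyp26a1 (0.9952), Gatm (0.9946), 4930579G18Rik (0.9945), Neu4 (0.9945), Ifitm6 (0.9915), Rragd (0.9913) and Sst (0.9911). They are the highest of 9811 genes searched, of which 89, or 0.907%, exceeded 0.95. The search left out genes in any list and genes whose SD within groups was below the median of all genes. Gm6133 read 3.85 to 4.11, near the lowest deposited value of 3.24. Sst, the gene of the neuropeptide somatostatin, read 8.02, 8.28 and 8.61 in the Klf5-deleted pools and 8.14, 8.73 and 8.02 in the controls, a difference of 0.01 (adjusted p = 0.995 by limma). Gatm, an enzyme of creatine synthesis, read 9.88, 10.23 and 10.67 against 9.68, 10.88 and 9.69, a difference of 0.18 (adjusted p = 0.875 by limma). Both share with the neuron members the high values on control 2 and Klf5-deleted 3.

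Cyp11a1, an enzyme of steroid synthesis, stood at 7.64 on control 2, while the remaining 5 arrays lay between 5.48 and 5.98. Rragd, a GTPase of amino acid sensing, differed by 0.45 (adjusted p = 0.17 by limma).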
